A study of Mus musculus with 30 samples.

Results

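Expression of 10 genes was followed in both count tables of this study of bone marrow progenitors: the transcription factor gene Atf4, 4 genes that act around or beneath it in stress signalling (Ddit3, Trib3, Chac1 and Sesn2), and 5 genes of amino acid and one-carbon synthesis (Asns, Phgdh, Psat1, Shmt2 and Mthfd2). They were taken by name, 10 of 55471 genes in each table, and all 10 passed the filter on low counts in both tables. The set was chosen by the stem cell values of Asns, which ranked 10 by p among the lower genes with at least 10 CPM (read counts scaled to library size), with a log2 fold change of -0.88. Myh10, at the next rank, had -1.02. Everything measured on the members in the stem cell comparison is therefore a description without a test. A second Ensembl entry named Ddit3 held no count in any library.

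Mice of the C57BL/6 strain received MTP10-HDL, a high-density lipoprotein nanoparticle carrying a muramyl peptide that is sensed through Nod2, or phosphate-buffered saline (PBS). Hematopoietic stem cells (HSCs) gave 6 MTP10-HDL and 7 PBS libraries, and multipotent progenitors (MPPs), their progeny, gave 3 MTP10-HDL and 2 PBS libraries. Each HSC or MPP library is a pool of 4 mice, so p-values measure the spread between pools. For MPPs the labels give 3 injections over 5 days for MTP10-HDL, with no schedule for PBS. They give collection on the following day, after lineage depletion and flow sorting. The injection schedule behind the HSC samples, and the age and sex of any mouse, were not known here. ATAC-seq samples of the series were not analysed here.

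ATF4 is made when translation initiation slows through phosphorylation of eIF2alpha, the common step of the integrated stress response that follows amino acid shortage, endoplasmic reticulum stress, heme shortage or double-stranded RNA. It binds composite C/EBP-ATF elements, often with a C/EBP partner, and raises genes for amino acid uptake, serine and asparagine synthesis and transfer RNA charging, together with its own brakes. Because control of ATF4 is largely translational, its messenger RNA is only a partial measure of the protein. In blood formation the heme-regulated branch of this response is best known from red cell precursors.

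One short letter pattern sets 3 of the 10 promoters apart, and the stretches that hold it are printed here. Any link between the pattern and the treatment differences was not tested. RefSeq windows on GRCm38.p6 from 250 bases before to 50 bases after the transcription start were found for all 10 members (11 windows, since Psat1 has an alternative start). They were searched on both strands for TGATGNAA, the core of the C/EBP-ATF element, and for its relative TGACGNAA. Among 32851 windows of the same length in the table, 3.97% held the first motif and 1.59% the second. Matches are in capitals, as they read on the gene's strand.
Asns, chr6:7693210-7693269, minus strand, the 60 bases before the start: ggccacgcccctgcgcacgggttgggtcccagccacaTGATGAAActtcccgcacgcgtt
Chac1, chr2:119350992-119351061, plus strand, from 250 to 181 bases before the start: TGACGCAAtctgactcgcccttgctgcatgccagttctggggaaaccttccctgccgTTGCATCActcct
Trib3, chr2:152344027-152344056, minus strand, 30 bases just after the start: tagctcaggtTTACATCAgccgggcgggga
Psat1, chr19:15925060-15925129, minus strand, the 70 bases before the start, with no match: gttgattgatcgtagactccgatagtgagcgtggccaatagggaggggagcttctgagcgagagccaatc
In Asns the match lay 23 to 16 bases before the start on the gene's own strand. Chac1 held TGATGNAA in reverse orientation 193 to 186 bases before the start and TGACGNAA at the far end of the window. In Trib3 the match lay 15 to 22 bases after the start, within a printed stretch that runs from 5 to 34 bases after it. The windows of the other 7 members held neither motif, which says only that these letters are not in these windows.

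HSC libraries held 5467455 to 7641976 counts with MTP10-HDL and 4064155 to 7879858 with PBS. MPP libraries held 17555267 to 32769369 counts with MTP10-HDL and 11252479 to 14691375 with PBS. The library kits differed, and no level is set across cell types. Markers of the labelled cells (Kit, Ly6a, Cd34, Flt3 and 8 others) were all detected in both cell types. In MPPs 10 of those 12 were lower with MTP10-HDL (median log2 fold change -0.46), whereas in HSCs their median was -0.01. HSC PBS 2 had the highest summed B and plasma cell markers (5627 CPM) and HSC MTP10-HDL 1 the highest monocyte and macrophage markers (2915 CPM). Ribosomal RNA took 0.508% to 0.915% of MPP counts with MTP10-HDL and 1.26% to 1.47% with PBS, so that share went with treatment there, and its part in the MPP values was not tested.

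No gene passed a false discovery rate (FDR) of 0.05 in edgeR's quasi-likelihood test in either cell type, and none of the 10 members did. In HSCs 0 of 16631 genes were called (0%), 1469 had an unadjusted p under 0.05 and limma voom called 0. DESeq2, run without edgeR's filter on low counts but with its own default filtering before adjustment, called 104. It gave a p-value to 47696 genes. Among the 104 was 1 member, Asns, which the same comparison had chosen. In MPPs 0 of 15449 genes were called (0%), 963 had an unadjusted p under 0.05 and limma voom called 0. DESeq2 called 163 genes there, with 0 members, and gave a p-value to 26202. Over all genes, unadjusted p under 0.05 was reached by 4.36% on the higher and 4.47% on the lower side in HSCs, and by 2.17% and 4.06% in MPPs, where 0 members reached it. Groups that did not overlap made up 0.168% on the lower and 0.174% on the higher side in HSCs. Members are described by their values. In HSCs 3 were higher and 7 lower with MTP10-HDL (median log2 fold change -0.18, against -0.02 over all genes tested), and in MPPs 4 were higher and 6 lower (median -0.18, against 0.02). Fitted values of Atf4, Ddit3, Trib3, Chac1, Sesn2 and Asns were below 0 in both cell types and those of Phgdh, Psat1 and Shmt2 above 0. Exceptions under other settings were Trib3 without PBS 4, Chac1 with limma voom and Sesn2 without MTP10-HDL 4, MTP10-HDL 5 or PBS 4 in HSCs, and Atf4 and Sesn2 without PBS 3 in MPPs, which turned positive.

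**Figure D1:**
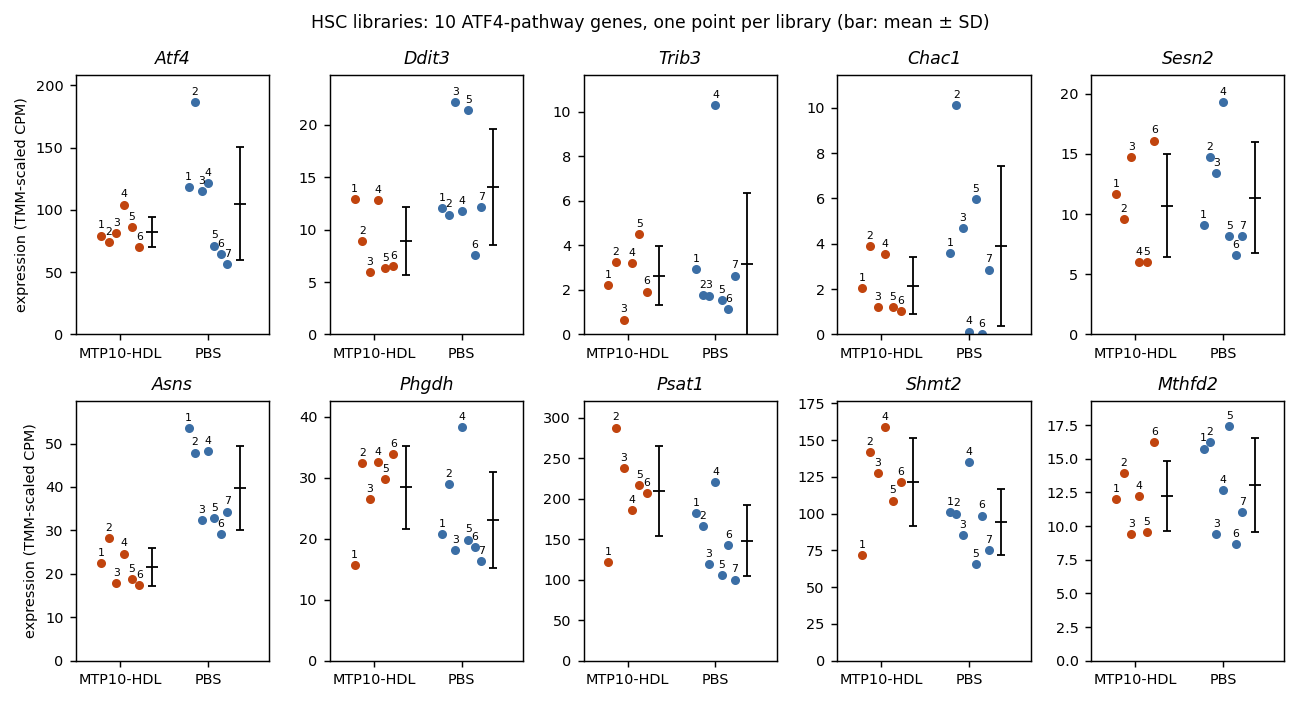
Expression of the 10 genes in HSC libraries, in TMM-scaled CPM on linear axes from 0, with 1 point per pooled library, its number beside it, and the mean ± SD at the right of each group. Asns is the only panel in which every MTP10-HDL point (17.4 to 28.2 CPM) lies under every PBS point (29.1 to 53.6 CPM).

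Asns encodes asparagine synthetase, which makes asparagine from aspartate with glutamine as the nitrogen donor. The gene lies on chromosome 6 (7675165 to 7693209 on mm10, ENSMUSG00000029752). In HSCs the MTP10-HDL libraries 1 to 6 held 22.5, 28.2, 17.9, 24.7, 18.8 and 17.4 CPM of Asns. The PBS libraries 1 to 7 held 53.6, 47.9, 32.4, 48.2, 32.9, 29.1 and 34.3 CPM. The groups did not overlap, with all 6 treated libraries lower than the lowest PBS library. Means were 21.6 ± 4.30 CPM with MTP10-HDL (SD, n = 6) and 39.8 ± 9.77 CPM with PBS (n = 7), a log2 fold change of -0.88 (SE 0.19). Such full separation on the lower side was found for 28 of 16631 genes (0.168%), with Asns the 1 member among them, and nothing is read from this, since the same comparison chose Asns. Less of a transcript in a bulk library can mean fewer cells of a type or less RNA per cell, which cannot be told apart.

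Within 3 technical groups of HSC libraries the Asns difference kept its sign. That sign was fixed in advance, since every treated library lay below every PBS library, so only the sizes are informative. The groups were those with the fewest detected genes (MTP10-HDL 2 and 3, PBS 1 and 4), those with the most ribosomal RNA among the rest (MTP10-HDL 1 and 4, PBS 2 and 3) and the other 5. Mean log2 CPM differed by -1.16, -0.73 and -0.81 in these groups. Over the 19 alternative fits the log2 fold change of Asns ran from -0.97 to -0.79.

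MPPs gave an Asns measurement that played no part in the choice of genes. The MTP10-HDL libraries 1, 2 and 3 held 19.1, 25.3 and 19.9 CPM and the PBS libraries 2 and 3 held 23.1 and 24.1 CPM. The groups overlapped, with MTP10-HDL 2 above both PBS libraries. The log2 fold change was -0.14 (SE 0.24, edgeR adjusted p = 0.957), and it was -0.28 without MTP10-HDL 2, -0.064 without MTP10-HDL 1 and -0.084 without MTP10-HDL 3. The difference between the HSC and MPP values was not tested.

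Phgdh and Psat1 encode the first and second enzymes of serine synthesis from a glycolytic intermediate. Psat1 (chromosome 19) was at 122, 288, 238, 186, 217 and 206 CPM in HSC MTP10-HDL libraries 1 to 6. It was at 182, 166, 119, 220, 106, 143 and 100.2 CPM in PBS libraries 1 to 7. The groups overlapped, though 5 of 6 treated libraries lay above the PBS median and only MTP10-HDL 1 lay below it. Means were 209 ± 55.2 CPM with MTP10-HDL (SD, n = 6) and 148 ± 44.0 CPM with PBS (n = 7), a log2 fold change of 0.50 (SE 0.21). In the 3 technical groups the differences were 0.39, 0.10 and 0.88.

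Psat1 had the smallest p of the 10 members in MPPs. Its MTP10-HDL libraries held 161, 147 and 156 CPM, against 114 and 118 CPM in the PBS libraries. The groups did not overlap, but the difference did not pass the test (log2 fold change 0.42, SE 0.19, edgeR adjusted p = 0.801). A processed pseudogene of Phgdh, Phgdh-ps1, is in the tables, and how shared reads were counted is not known. Phgdh (chromosome 3) gave 15.6 to 33.8 CPM in HSCs with MTP10-HDL (median 31.1, n = 6) and 16.3 to 38.3 CPM with PBS (median 19.9, n = 7). Here too 5 of 6 treated libraries lay above the PBS median, and MTP10-HDL 1 lay below every PBS library. Its log2 fold change was 0.30 (SE 0.23) in HSCs, with 0.05, -0.02 and 0.79 in the technical groups and 0.47 without PBS 4. In MPPs Phgdh was at 123, 182 and 172 CPM with MTP10-HDL and 126 and 136 CPM with PBS (log2 fold change 0.28, SE 0.23, edgeR adjusted p = 0.895), with 0.43 without MTP10-HDL 1 and 0.17 without MTP10-HDL 2.

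Shmt2 and Mthfd2 encode mitochondrial enzymes that take 1-carbon units from serine and pass them along as folate derivatives. Shmt2 (chromosome 10), which overlaps Ndufa4l2 by 32 bases, was at 71.7 to 159 CPM in HSCs with MTP10-HDL (median 125, n = 6) and 65.8 to 135 CPM with PBS (median 98.6, n = 7). As with the serine enzymes, 5 of 6 treated libraries exceeded the PBS median and MTP10-HDL 1 did not. Its log2 fold change was 0.37 (SE 0.19), with 0.20, 0.21 and 0.54 in the technical groups. MPP libraries held 184, 184 and 190 CPM of Shmt2 with MTP10-HDL and 162 and 131 CPM with PBS, without overlap (log2 fold change 0.34, SE 0.20, edgeR adjusted p = 0.863), with 0.20 without PBS 3.

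Mthfd2 (chromosome 6) overlapped between treatments in HSCs. It was at 9.43 to 16.2 CPM with MTP10-HDL (median 12.1, n = 6) and 8.68 to 17.4 CPM with PBS (median 12.7, n = 7), with a log2 fold change of -0.09 (SE 0.24) that ran from -0.18 to -0.0064 over single libraries left out. The treated range lay inside the PBS range. In MPPs the MTP10-HDL libraries held 35.9, 34.4 and 31.3 CPM, all above the 30.1 and 20.4 CPM of the PBS libraries (log2 fold change 0.42, SE 0.24, edgeR adjusted p = 0.859). That value was 0.17 without PBS 3 and 0.72 without PBS 2. Groups without overlap on the higher side were common in MPPs, at 12% of genes tested, and on the lower side at 12.3%. Of the 10 members 3 did not overlap on the higher side (Psat1, Shmt2 and Mthfd2) and 1 on the lower side (Chac1).

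**Figure D2:**
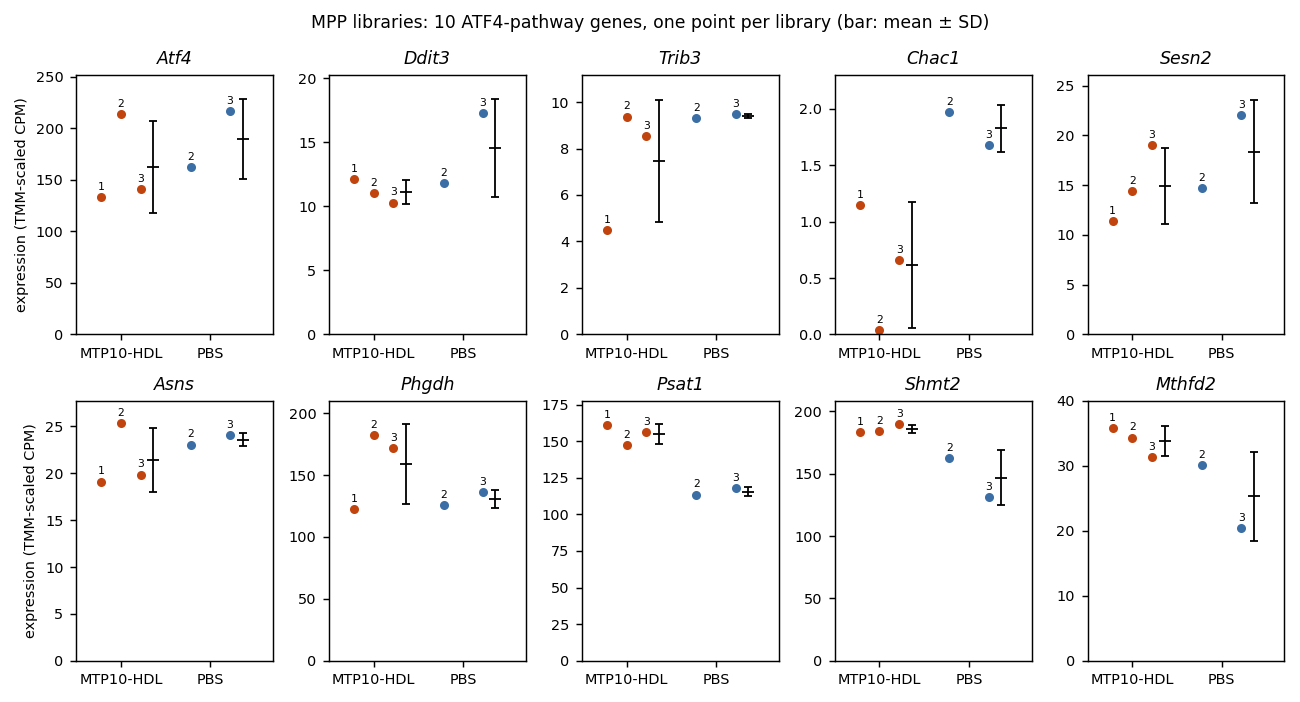
Expression of the same genes in MPP libraries, in TMM-scaled CPM on linear axes from 0, with 1 point per library, its number beside it, and the mean ± SD at the right. Psat1, Shmt2 and Mthfd2 have all 3 MTP10-HDL points above both PBS points, and Chac1 has all 3 below.

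Atf4 itself (chromosome 15, 80255184 to 80257545) varied more among PBS than among MTP10-HDL HSC libraries. The treated libraries held 79.3, 74.0, 81.3, 104, 86.3 and 70.0 CPM, and PBS libraries 1 to 7 held 118, 187, 115, 121, 71.3, 64.3 and 56.8 CPM. PBS 1 to 4 were thus above every treated library, and PBS 6 and 7 below every one. The log2 fold change was -0.35 (SE 0.23), with -0.63 and -0.69 in the first and second technical groups and 0.28 in the third. Without PBS 2, the library with 187 CPM, it was -0.14. MPP libraries held 134, 214 and 141 CPM with MTP10-HDL and 163 and 217 CPM with PBS (log2 fold change -0.22, SE 0.27, edgeR adjusted p = 0.934), a value that came to 0.0022 without PBS 3.

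Ddit3 encodes CHOP, the C/EBP-family factor that ATF4 induces under lasting stress. In HSCs it was at 12.9, 8.91, 5.98, 12.8, 6.36 and 6.50 CPM with MTP10-HDL. With PBS it was at 12.0, 11.4, 22.1, 11.8, 21.4, 7.56 and 12.1 CPM. MTP10-HDL 3, 5 and 6 lay below all PBS libraries, and MTP10-HDL 1, 2 and 4 lay among them. The log2 fold change was -0.66 (SE 0.30), with -0.68, -0.30 and -0.93 in the technical groups. In MPPs Ddit3 held 12.1, 11.004 and 10.3 CPM with MTP10-HDL and 11.8 and 17.3 CPM with PBS (log2 fold change -0.38, SE 0.29, edgeR adjusted p = 0.887). It was -0.084 without PBS 3 and -0.64 without PBS 2. The gene overlaps its neighbours Mbd6 and Mars1 by 77 and 71 bases at its ends, and the strand setting of the counting is not given.

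Trib3 and Chac1, a pseudokinase that restrains ATF4 and an enzyme that degrades glutathione, had few counts in HSCs. Trib3 was at 0.664 to 4.52 CPM with MTP10-HDL (median 2.71, n = 6) and 1.13 to 10.3 CPM with PBS (median 1.76, n = 7). Its log2 fold change was -0.27 (SE 0.58), yet 5 of 6 treated libraries lay above the PBS median. It was 0.42 (SE 0.48) without PBS 4, which held the 10.3 CPM. In MPPs Trib3 was at 4.48, 9.37 and 8.53 CPM with MTP10-HDL and 9.32 and 9.47 CPM with PBS (log2 fold change -0.33, SE 0.40, edgeR adjusted p = 0.932), or -0.072 without MTP10-HDL 1 and -0.54 without MTP10-HDL 2.

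Chac1 counts in HSCs were 12, 24, 9, 20, 10 and 7 reads with MTP10-HDL and 22, 46, 27, 1, 27, 0 and 13 reads with PBS. The count of 0 in PBS 6 allows up to 0.482 CPM, by counting error alone. Its fitted difference was a log2 fold change of -0.84 (SE 0.80), with -0.40 without PBS 2, and limma voom gave 0.45, the opposite sign, so no direction can be given for Chac1 in HSCs. MPP counts were 39, 1 and 12 reads with MTP10-HDL and 29 and 19 reads with PBS, or 1.15, 0.0355 and 0.66 CPM and 1.97 and 1.68 CPM. All treated values were lower (log2 fold change -1.56, SE 1.19, edgeR adjusted p = 0.888), with -0.9996 without MTP10-HDL 2 and -2.42 without MTP10-HDL 1.

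Sesn2 encodes sestrin 2, which binds leucine and restrains mTORC1 when leucine is short. It was at 5.99 to 16.1 CPM in HSCs with MTP10-HDL (median 10.6, n = 6) and 6.59 to 19.3 CPM with PBS (median 9.09, n = 7). The ranges overlapped (log2 fold change -0.09, SE 0.32). In MPPs it was at 11.4, 14.4 and 19.0 CPM with MTP10-HDL and 14.7 and 22.03 CPM with PBS (log2 fold change -0.30, SE 0.32, edgeR adjusted p = 0.921).

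**Figure D3:**
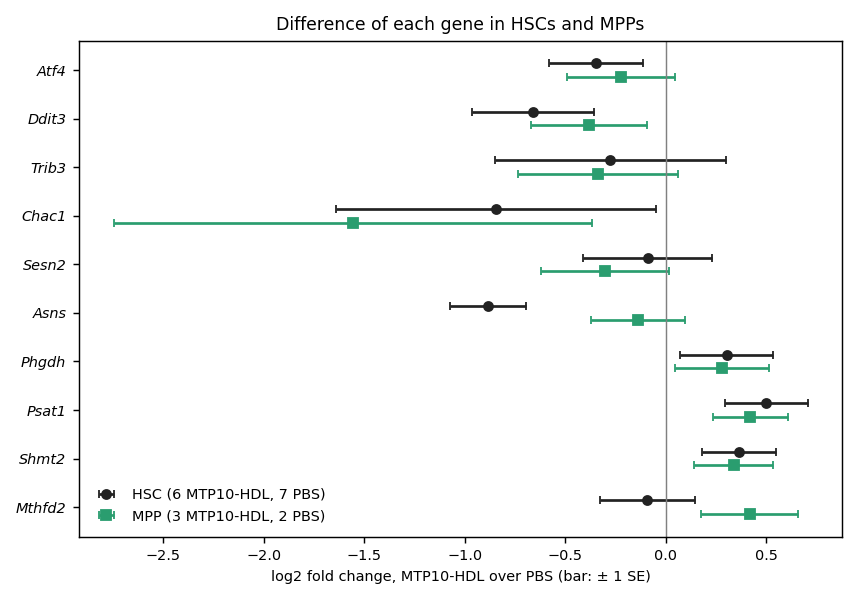
Log2 fold change of each gene, MTP10-HDL over PBS, with ± 1 SE from edgeR, circles for HSCs (6 against 7 libraries) and squares for MPPs (3 against 2). Phgdh, Psat1 and Shmt2 lie right of 0 in both cell types, and Asns lies at -0.88 in HSCs and -0.14 in MPPs.

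A ratio of 2 genes within a library does not depend on scaling, and the ratio of Psat1 to Asns counts was taken up after the values had been seen, so it carries no test. In HSCs there were 5.41, 10.2, 13.3, 7.54, 11.5 and 11.8 Psat1 reads per Asns read with MTP10-HDL, and 3.39, 3.46, 3.67, 4.57, 3.21, 4.91 and 2.92 with PBS. Every treated library lay above every PBS library, but Asns, the denominator, was already separated in these libraries and chosen from them. In MPPs the ratio was 8.43, 5.82 and 7.87 with MTP10-HDL and 4.92 and 4.89 with PBS, without overlap. Of single genes in MPPs 12% did not overlap on the higher side and 12.3% on the lower. Such a share was not worked out for ratios, and all ratios to Asns have the same denominator. The other ratios to Asns overlapped in HSCs. Phgdh reads per Asns read were 0.695 to 1.94 with MTP10-HDL and 0.388 to 0.794 with PBS, Shmt2 reads 3.19 to 7.12 with MTP10-HDL and 1.88 to 3.39 with PBS, and Mthfd2 reads 0.494 to 0.932 with MTP10-HDL and 0.263 to 0.530 with PBS. In MPPs these 3 ratios did not overlap, at 6.41 to 8.66 with MTP10-HDL and 5.45 and 5.65 with PBS for Phgdh, 7.27 to 9.60 with MTP10-HDL and 5.46 and 7.04 with PBS for Shmt2, and 1.36 to 1.88 with MTP10-HDL and 0.849 and 1.31 with PBS for Mthfd2. Asns per Atf4 read was 0.218 to 0.381 with MTP10-HDL in HSCs (median 0.243) and 0.256 to 0.605 with PBS (median 0.453), which overlapped. In MPPs that ratio was 0.118 to 0.143 with MTP10-HDL and 0.111 to 0.142 with PBS.

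**Figure D4:**
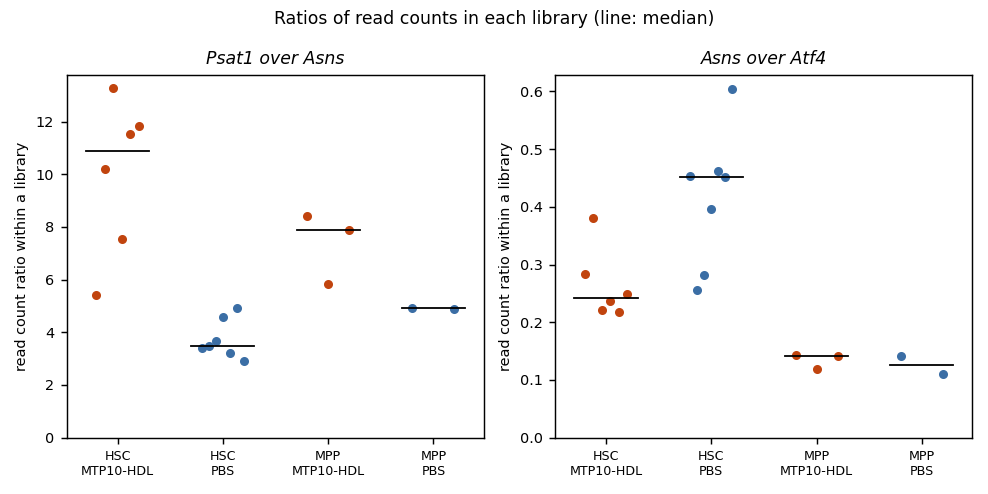
Read count ratios within each library, with 1 point per library and a line at the median, on linear axes from 0. Psat1 over Asns (left) was 5.41 to 13.3 in HSC MTP10-HDL libraries and 2.92 to 4.91 in HSC PBS libraries, and Asns over Atf4 (right) overlapped between treatments.

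Across the 13 HSC libraries each treatment's mean log2 CPM was taken out. Phgdh, Psat1 and Shmt2, 3 of the enzyme genes, then varied together by Pearson r, but not by rank after adjustment. Among the 45 pairs of members, 3 passed a permutation test on Pearson r within treatments after Benjamini-Hochberg adjustment. The share of all gene pairs that reach such r was not worked out. These were Psat1 with Shmt2 (Pearson r = 0.842, p = 0.00123, adjusted 0.0472), Phgdh with Shmt2 (r = 0.823, p = 0.00251, adjusted 0.0472) and Phgdh with Psat1 (r = 0.808, p = 0.00315, adjusted 0.0472). Their Spearman coefficients were 0.791, 0.731 and 0.720, with permutation p of 0.00327, 0.00612 and 0.0106 and an adjusted p of 0.120 for each. Without the 2 libraries farthest from the median r was 0.680, 0.577 and 0.591, and with technical groups also taken out it was 0.868, 0.801 and 0.810. Mthfd2 gave r = 0.326 with Phgdh, 0.123 with Psat1 and -0.000748 with Shmt2 (permutation p = 0.304, 0.699 and 0.998, adjusted 0.623, 0.792 and 0.998; rho = 0.456, 0.143 and 0.132, permutation p = 0.148, 0.664 and 0.684, adjusted 0.520, 0.821 and 0.821). Without the 2 farthest libraries these were 0.540, 0.168 and 0.332, and with technical groups taken out 0.281, 0.0200 and -0.122. Atf4 and Asns gave r = 0.606 (permutation p = 0.0574, adjusted 0.431), rho = 0.560 (permutation p = 0.0770, adjusted 0.395), 0.588 without the 2 farthest libraries, and 0.422 with technical groups taken out. No technical group holds the 6 libraries needed for a coefficient of its own. Most treatments had 2 libraries within a technical group, whose deviations then mirror each other. Coefficients with technical groups taken out, here and below, thus rest on fewer independent values than 13. The 5 genes most like Asns by this measure, among 9217 genes of at least 10 CPM, were Igbp1 (r = 0.888), Igkv3-2 (0.863), Atf6b (0.863), Dynll1 (0.861) and Ccdc71l (0.858). Over the 13 libraries with treatment left in they were Ppp1r16b (0.898), Strn3 (0.878), Traf3ip2 (0.856), Zrsr1 (0.838) and Tatdn1 (0.837). How high the top r of 9217 genes would run by chance was not worked out, so nothing is read from these names.

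The nearest annotated genes on either side of Asns, the noncoding Gm35051 and Gm46950, were not matched by symbol in the tables. The nearest protein-coding genes, looked up afterwards, were Tac1 on the side of lower coordinates, with at most 9 reads in any HSC library, and C1galt1, a glycosyltransferase gene, with 316 to 727 reads in HSCs.

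Upstream of ATF4, the 19 measured genes for eIF2alpha kinases and eIF2 control held no call in either cell type. In HSCs 11 were higher and 8 lower (median log2 fold change 0.07), and in MPPs 14 were higher and 5 lower (median 0.21). Ppp1r15a, the ATF4-induced phosphatase subunit that ends the response, had the smallest p of the list in HSCs, at 22.6 ± 6.76 CPM with MTP10-HDL (SD, n = 6) and 45.8 ± 30.4 CPM with PBS (n = 7), a log2 fold change of -1.02 (SE 0.36). Eif2b2, a subunit of the exchange factor of eIF2, followed with 0.41 (SE 0.20). In MPPs the 2 of smallest p were Oma1, a mitochondrial protease that relays stress to eIF2alpha kinase HRI (0.51, SE 0.23, edgeR adjusted p = 0.806), and Eif2b5 (0.47, SE 0.23, edgeR adjusted p = 0.819).

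Among other ATF4 targets and partners, 11 were higher and 9 lower of 20 tested in HSCs (median 0.05), and 8 were higher and 10 lower of 18 in MPPs (median -0.00498), with 0 called. Herpud1, a factor of endoplasmic reticulum degradation, had a log2 fold change of -0.92 (SE 0.34) in HSCs and -0.30 (SE 0.20, edgeR adjusted p = 0.874) in MPPs. In HSCs PBS 2 held 144 CPM of Herpud1, and PBS 3, the next library, held 69.7 CPM. Pck2, the mitochondrial phosphoenolpyruvate carboxykinase, had 0.28 (SE 0.14) and 0.49 (SE 0.26, edgeR adjusted p = 0.832). The aminoacyl-tRNA synthetases, which charge transfer RNAs, were higher for 13 of 20 in HSCs (median 0.17) and 18 of 20 in MPPs (median 0.11), and none was called. Gars and Kars led in HSCs at 0.39 (SE 0.14) and 0.46 (SE 0.18), and Hars and Eprs in MPPs at 0.43 (SE 0.23, edgeR adjusted p = 0.826) and 0.34 (SE 0.19, edgeR adjusted p = 0.853).

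Amino acid transporters were 6 higher and 6 lower of 12 in HSCs (median -0.07), and 4 higher and 7 lower of 11 in MPPs (median -0.08), with 0 called. Slc1a4, which carries neutral amino acids including serine, was at 5.49, 0, 0.398, 1.78, 3.67 and 1.33 CPM in HSCs with MTP10-HDL. PBS libraries 1 to 7 held 2.92, 7.47, 5.23, 7.91, 4.41, 5.79 and 5.28 CPM. Of the treated libraries 4 lay below all PBS libraries and 2 among them. MPP libraries held 1.59, 1.60 and 1.43 CPM of Slc1a4 with MTP10-HDL, below the 4.83 and 4.07 CPM of PBS, and the log2 fold change was -1.53 (SE 0.50, edgeR adjusted p = 0.679), against -1.40 (SE 0.65) in HSCs. Slc7a6 in HSCs (0.34, SE 0.15) and Slc3a2 in MPPs (-0.48, SE 0.23, edgeR adjusted p = 0.819) were the others of smallest p.

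Other enzymes of serine, glycine and folate metabolism were higher for 10 of 16 in HSCs (median 0.17) and 12 of 16 in MPPs (median 0.24), with 0 called. Tyms, which uses folate to make thymidylate, had 0.31 (SE 0.14) in HSCs. Shmt1, the cytosolic counterpart of Shmt2, had 0.39 (SE 0.21) in HSCs. Aldh1l2, a mitochondrial folate dehydrogenase known as an ATF4 target, was low in MPPs, at 0.772 ± 0.123 CPM with MTP10-HDL (SD, n = 3) and 3.32 ± 1.56 CPM with PBS (n = 2; log2 fold change -2.10, SE 0.67, edgeR adjusted p = 0.667). Psph, the last enzyme of serine synthesis and named outside the rule, had -0.13 (SE 0.17) in HSCs and 0.05 (SE 0.27, edgeR adjusted p = 0.983) in MPPs.

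Enzymes of aspartate, glutamine and proline metabolism were higher for 12 of 17 in HSCs (median 0.18) and 10 of 17 in MPPs (median 0.08), with 0 called. Ass1, argininosuccinate synthetase, which uses aspartate as Asns does, had the smallest p of this list in both cell types. HSC libraries held 19.7, 27.7, 35.6, 38.5, 21.9 and 22.2 CPM of Ass1 with MTP10-HDL and 16.4, 20.7, 16.2, 14.4, 20.3, 20.1 and 11.9 CPM with PBS. Only MTP10-HDL 1 fell within the PBS range (log2 fold change 0.69, SE 0.21). MPP libraries held 43.4, 49.8 and 26.4 CPM with MTP10-HDL, above the 16.1 and 18.1 CPM with PBS (log2 fold change 1.22, SE 0.31, edgeR adjusted p = 0.485). Glud1 in HSCs (0.43, SE 0.16) and Gfpt1 in MPPs (-0.52, SE 0.27, edgeR adjusted p = 0.828) came next.

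Sestrin and mTORC1 control genes were higher for 11 of 15 in HSCs (median 0.18), led by Mtor (0.23, SE 0.12) and Deptor (0.39, SE 0.22), and for 8 of 15 in MPPs (median 0.06), led by Deptor (0.48, SE 0.27, edgeR adjusted p = 0.853) and Depdc5 (0.44, SE 0.35, edgeR adjusted p = 0.889). Genes of the XBP1 and ATF6 arm, the other branches of the unfolded protein response, were lower for 9 of 14 in HSCs (median -0.14) and 8 of 14 in MPPs (median -0.06). Ern1, the stress sensor IRE1alpha, had -0.49 (SE 0.14) in HSCs. The chaperone gene Dnajb9 had -0.56 (SE 0.30) there and -0.75 (SE 0.22, edgeR adjusted p = 0.593) in MPPs. The HSC value of Dnajb9 leaned on PBS 2, at 73.2 CPM. PBS 3, the next PBS library, held 31.0 CPM, and MTP10-HDL libraries held 13.3 to 33.3 CPM. Xbp1 had -0.84 (SE 0.30, edgeR adjusted p = 0.729) in MPPs. None of these genes was called.

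Markers of red cell precursors moved with treatment beside these genes. All 15 erythroblast markers were lower with MTP10-HDL in HSCs (median log2 fold change -1.32), and their summed level was 455 to 862 CPM with MTP10-HDL and 784 to 1552 CPM with PBS. In MPPs 12 of 14 tested were lower (median -2.08), with sums of 535 to 609 CPM with MTP10-HDL and 689 and 960 CPM with PBS. None of the 15 was at 0 in all libraries of a cell type. MTP10-HDL 4 (862 CPM) was the only treated library with a sum above any PBS sum. It held 24.7 CPM of Asns, and PBS 4, with the lowest PBS sum (784 CPM), held 48.2 CPM. MTP10-HDL 1, 2, 3, 5 and 6 had sums of 485, 618, 767, 629 and 455 CPM, below every PBS sum. Treatment and the erythroblast marker sum thus went largely together, and their parts in the Asns difference cannot be told apart. Whether the sum reflects erythroblasts among the sorted cells or marker RNA within the stem cells was not tested. The relation that follows had treatment means taken out and does not bear on that difference. Within treatments Asns and the erythroblast sum gave r = -0.0175 over 13 libraries (permutation p = 0.956, adjusted 0.956 over 20 relations), rho = 0.0330 (permutation p = 0.924, adjusted 0.972), -0.178 without the 2 farthest libraries and 0.121 with technical groups taken out.

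**Figure D5:**
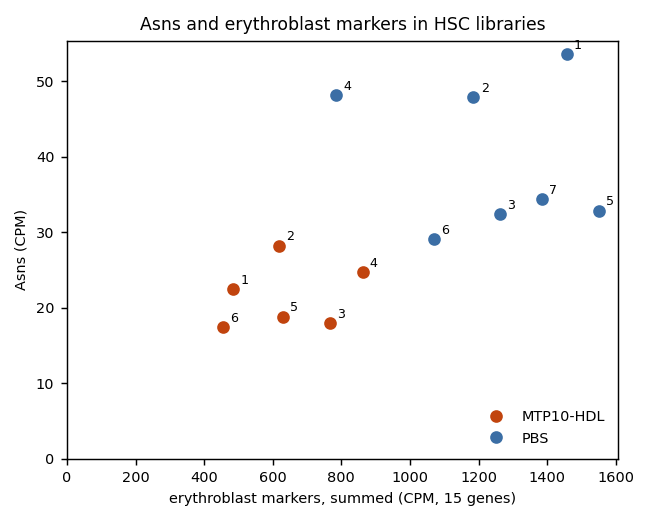
Asns in CPM against the summed CPM of 15 erythroblast markers in each HSC library, numbered, on linear axes from 0. Both measures were lower with MTP10-HDL, and only MTP10-HDL 4 (862 CPM) had a sum above that of a PBS library (PBS 4, 784 CPM).

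Immediate early genes, which respond to handling as well as to signals, were lower for 15 of 17 in HSCs (median -1.24) and 17 of 17 in MPPs (median -1.88). Their sums were 356 to 968 CPM with MTP10-HDL and 214 to 3400 CPM with PBS in HSCs. In MPPs they were 329 to 968 CPM with MTP10-HDL and 460 and 3579 CPM with PBS. Within treatments, over 13 HSC libraries, the immediate early sum gave r = 0.676 with Atf4 (permutation p = 0.0666, adjusted 0.333 over 20 relations). For Sesn2 r was 0.615 (permutation p = 0.0242, adjusted 0.333) and for Ddit3 0.217 (permutation p = 0.515, adjusted 0.888). With technical groups also taken out these were 0.150, 0.399 and 0.187. Of the 20 relations 0 passed after adjustment. The part of these genes in the treatment differences of Ddit3, Ppp1r15a and Atf4 was not tested. Summed B and plasma cell markers, lower for 9 of 9 tested, were at 77.2 to 934 CPM with MTP10-HDL and 105 to 5627 CPM with PBS in HSCs. In MPPs 7 of 11 were lower, with 1480 to 3623 CPM with MTP10-HDL and 3569 and 6898 CPM with PBS. Basophil and mast cell markers were lower for 4 of 4 in HSCs (30.9 to 99.4 CPM with MTP10-HDL, 68.7 to 214 CPM with PBS) and 2 of 4 in MPPs (24.3 to 34.1 CPM with MTP10-HDL, 26.3 and 42.7 CPM with PBS). Dendritic cell markers were lower for 4 of 5 in HSCs (60.1 to 138 CPM with MTP10-HDL, 61.2 to 164 CPM with PBS) and 5 of 6 in MPPs (133 to 169 CPM with MTP10-HDL, 168 and 196 CPM with PBS). Mature neutrophil markers were higher for 9 of 9 in HSCs (552 to 5023 CPM with MTP10-HDL, 89.6 to 3470 CPM with PBS) and 6 of 9 in MPPs (227 to 1532 CPM with MTP10-HDL, 578 and 726 CPM with PBS). Monocyte and macrophage markers were higher for 8 of 10 in HSCs (185 to 2915 CPM with MTP10-HDL, 152 to 1903 CPM with PBS) and 4 of 9 in MPPs (109.8 to 186 CPM with MTP10-HDL, 140.4 and 162 CPM with PBS). T and NK cell, megakaryocyte, and stromal and endothelial markers had median log2 fold changes of 0.23, 0.03 and -0.01 in HSCs and -0.07, -0.41 and -0.75 in MPPs. Gp1bb, a platelet marker, was at 0 in every MPP library. Of the marker sums, only those of erythroblasts and immediate early genes were related to the members. PBS 1 and PBS 2, with the highest B and plasma cell sums (1520 and 5627 CPM), held 53.6 and 47.9 CPM of Asns. PBS 4, with a sum of 289 CPM, held 48.2 CPM. Igkv3-2, an immunoglobulin gene, was among the 5 genes most like Asns within treatments (r = 0.863), with no chance level worked out. The part of these cells in the members' values was not tested.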

How the data were processed

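The authors deposited raw read counts per Ensembl gene, whole numbers, in a table per cell type (55471 genes, 13 HSC and 5 MPP columns, none left out). STAR 2.5.2b and CASAVA 1.8.2 are named for HSCs, and STAR 2.7.2a, R 3.6.1 and DESeq2 1.24 for MPPs, with mm10 for both, per the submitters' processing notes. Per the labels' protocols, HSC libraries were amplified cDNA read as single ends, and MPP libraries were poly-A selected with insect carrier RNA and directional. How reads were counted (tool, annotation, strand) was not known here. HSC PBS columns are numbered 1 to 7 while the labels run to 8, so they were used as a group.

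Each table was fitted alone with edgeR 4.0.16 in R 4.3.3 (TMM scaling, filterByExpr, quasi-likelihood F test, Benjamini-Hochberg adjustment over all genes, FDR 0.05). The fit was checked on simulated counts, with changes larger than any member's in the main fits, so smaller differences were not covered. CPM are TMM-scaled, and log2 CPM used a prior count of 2. DESeq2 1.42.0, limma 3.58.1 (voom), no filter, single libraries left out, replicate number as a block (the numbers did not pair the libraries) and technical group as a term were tried. Relations used 100000 permutations within treatments. Positions and promoters come from RefSeq tables of GRCm38.p6, matched by symbol.

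The 10 members, 8 pathway lists and 11 marker lists were chosen with earlier results of these data known, and immediate early genes were added last. All members are named, with the 2 genes of smallest p of each pathway list in each cell type, since none passed; 1 such gene is not reported here. Totals of 4064155 to 32769369 counts set the precision of low genes, and the floor of 3 counts covers counting error only.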

Additional observations from a re-analysis of the deposited data

Results flagged for a closer look

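In the HSC PBS group Trib3 stood at 10.3 CPM in PBS 4, farther from the next library than the spread of the other 6 allows by Dixon's criterion, among 20 groups of member values examined. Chance marks about 1 such group in 20. The log2 fold change of Trib3 was 0.42 without PBS 4.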

How the results depend on the processing

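HSC calls were 0 in edgeR, 104 in DESeq2 and 44 with no filter on low counts, and ran from 0 to 1 when single libraries were left out, with the 1 arising without MTP10-HDL 4. MPP calls were 0 in edgeR, 163 in DESeq2, 345 with no filter and 43 with replicate number as a block, and ran from 0 to 17 over libraries left out, with the 17 arising without PBS 3. No MPP member was called under any of these. Asns in HSCs was called by DESeq2 alone of the tools, in the comparison that had chosen it. The median log2 fold change of all HSC genes was -0.23 in DESeq2 and -0.15 with no filter, against -0.02 in edgeR. Of the members' log2 fold changes under alternatives, 273 kept direction and 7 reversed. Reversals were Trib3 in HSCs (0.42 without PBS 4, with a range of -0.50 to 0.42 over libraries left out), Chac1 in HSCs (0.45 with limma voom) and Sesn2 in HSCs (0.035, 0.054 and 0.091 without MTP10-HDL 4, MTP10-HDL 5 and PBS 4, range -0.23 to 0.091). In MPPs, without PBS 3, Atf4 came to 0.0022 (range -0.47 to 0.0022) and Sesn2 to 0.020 (range -0.58 to 0.020). That fit leaves 1 PBS library, assumed to vary like the treated ones. The cause was not tested. Replicate numbers did not pair the libraries: same-numbered deviations correlated at -0.185 to 0.192 in HSCs and -0.168 and -0.0294 in MPPs, and with the block the HSC count was 0 and Asns had -0.90 in HSCs. Leaving out PBS 2 and MTP10-HDL 1 together, an alternative chosen after seeing the data, gave -0.84 for Asns, 0.65 for Psat1 and 0.50 for Shmt2 in HSCs, with 0 genes called. Psat1 ran from 0.40 to 0.65 in HSCs and 0.39 to 0.46 in MPPs over all alternatives. Depth limits Chac1 and Trib3 most, with 0 to 82 reads per HSC library.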
